A study of Mus musculus with 4 samples.

Results

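Fibronectin and 9 matricellular genes were followed in mouse lung under normoxia and under Sugen with hypoxia. The genes were chosen by name, with earlier results of these data known. They are tenascins Tnc and Tnxb, thrombospondins Thbs1 and Thbs2, Sparc, its relative Sparcl1, Postn (periostin), Spp1 (osteopontin), Mgp (matrix Gla protein) and Fn1 (fibronectin). These are 10 of the 47729 genes counted, and all 10 passed the filter on low counts that left 18783 genes for testing. The question asked was how each differs between the treatments.

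Each of 4 libraries, read from its sex entries as a pool of animals, came from lungs of mice of strain BL/6 with the genotype label Control (Rosa), which both groups share. The Normoxic group has 2 libraries, 1 pool of 3 females (replicate 1) and 1 pool of 1 female and 2 males (replicate 2). The Sugen-Hypoxic group has 2 libraries, each a pool of 2 males. Sugen is an inhibitor of VEGF receptors, and with hypoxia it is used in rodents to raise pulmonary artery pressure. The titles carry the tag MSX1, which the labels do not explain, and the labels hold no age, dose or length of exposure. The mutant KCNK3 arm named in the design text was not analysed here. Treatment and pool sex cannot be told apart, since both treated pools are all male. Nor can Sugen be told apart from hypoxia, since no library here had either alone. Nothing in the labels describes how animals were assigned to pools, so p-values measure only the spread between these 4 pools.

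Gene counts summed to 57.3 to 67.1 M per library (M, 1e6). Levels are in CPM, counts per 1e6 gene counts after TMM scaling, and changes are log2 fold changes of Sugen-Hypoxic over Normoxic. The extraction text names kidneys, but the surfactant gene Sftpc stood at 11254 to 12416 CPM and the 8 kidney markers together at 0.342 to 0.995 CPM. In bulk RNA, a change in the number of cells of a type and a change in RNA per cell cannot be told apart. In edgeR's quasi-likelihood test 2163 of 18783 genes (11.5%) passed an adjusted p of 0.05, 1035 higher (5.51%) and 1128 lower (6.01%).

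Matricellular proteins are secreted into the extracellular matrix but act mainly as signals and adaptors, binding integrins, growth factors, proteases and collagen rather than bearing load. Many are abundant in the embryo, fall in the healthy adult and return in injured or remodelling tissue. Fibronectin is a structural adhesive glycoprotein on whose fibrils collagen and several of these proteins are laid down. In the wall of pulmonary vessels they come from smooth muscle cells, fibroblasts, endothelium and macrophages.

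The 4 promoter windows are shown because they belong to members with different outcomes: the largest rise (Tnc), the only fall (Tnxb), a rise that was alike in both treated pools (Sparc) and a gene whose libraries overlapped (Postn). Each is the 250 bases before a RefSeq transcription start (table build GRCm38.p6), written 5′ to 3′ on the gene's own strand, and capitals mark the motif matches given below. RefSeq windows were matched for 6 of the 10 members, and where a gene has 2 the one nearest its annotated start is shown. The Sparc window lies inside the annotated gene, downstream of its outermost start.
Tnc, chr4:64047016-64047265, minus strand: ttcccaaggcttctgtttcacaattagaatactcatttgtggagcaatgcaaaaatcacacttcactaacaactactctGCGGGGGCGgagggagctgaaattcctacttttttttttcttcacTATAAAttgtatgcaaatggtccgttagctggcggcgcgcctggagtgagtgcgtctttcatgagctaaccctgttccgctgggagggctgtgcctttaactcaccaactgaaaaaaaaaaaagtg
Tnxb, chr17:34670285-34670534, plus strand: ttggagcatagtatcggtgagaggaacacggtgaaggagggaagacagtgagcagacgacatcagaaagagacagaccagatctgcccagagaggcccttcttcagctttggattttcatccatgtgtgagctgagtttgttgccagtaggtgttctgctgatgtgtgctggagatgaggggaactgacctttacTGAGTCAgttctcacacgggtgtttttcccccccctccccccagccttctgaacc
Sparc, chr11:55420081-55420330, minus strand: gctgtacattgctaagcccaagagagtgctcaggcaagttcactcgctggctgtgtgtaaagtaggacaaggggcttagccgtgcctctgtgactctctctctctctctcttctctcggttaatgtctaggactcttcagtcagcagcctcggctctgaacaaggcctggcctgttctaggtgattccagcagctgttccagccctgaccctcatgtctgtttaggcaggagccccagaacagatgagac
Postn, chr3:54360857-54361106, plus strand: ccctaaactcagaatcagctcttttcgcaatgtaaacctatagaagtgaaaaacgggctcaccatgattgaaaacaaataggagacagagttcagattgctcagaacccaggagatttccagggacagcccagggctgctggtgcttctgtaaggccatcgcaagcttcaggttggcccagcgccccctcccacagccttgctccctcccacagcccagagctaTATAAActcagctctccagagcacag

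A set of 6 motifs was searched on both strands. TGANTCA stands for AP-1 and TATAAA for the TATA box. GCGTG is the core bound by the aryl hydrocarbon receptor, and ACGTG is the core bound by hypoxia-inducible factors. GCGNGGGCG stands for EGR factors, and the CArG box of serum response factor was searched by its usual consensus. An EGR match can hold GCGTG and a CArG box can hold TATAAA, so matches may overlap. The Tnc window holds an EGR match whose first base lies 171 bases before the start and a TATA match at 126 bases. The Tnxb window holds 1 AP-1 match at 55 bases, and the Postn window a TATA match at 26 bases. The Sparc window holds none of the 6 motifs, which says only that these letters are not in this window. Among 32851 windows of the same length, 4.7% hold the EGR motif, 6.75% AP-1, 12.4% TATA, 28.2% GCGTG, 16.6% ACGTG and 1.47% the CArG box.

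Of the 10 genes, 6 rose (Tnc, Fn1, Mgp, Sparc, Thbs1 and Sparcl1), 1 fell (Tnxb) and 3 did not pass (Postn, Spp1 and Thbs2). Of all genes tested, 5.51% rose and 6.01% fell. The median log2 fold change of the 10 was 0.69, beside -0.0039 for all genes tested. Since the 10 were chosen with earlier results of these data known, these comparisons describe the list and are not independent support. Both treated libraries lay above both normoxic ones for the same 6 genes and below them for Tnxb, and the other 3 overlapped. Such separation is common here: of all genes tested, 30% had both treated libraries above and 31.7% below. Together the 10 genes took 0.532 and 0.561% of gene counts in the normoxic libraries and 0.793 and 0.95% in the treated ones.

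**Figure D1:**
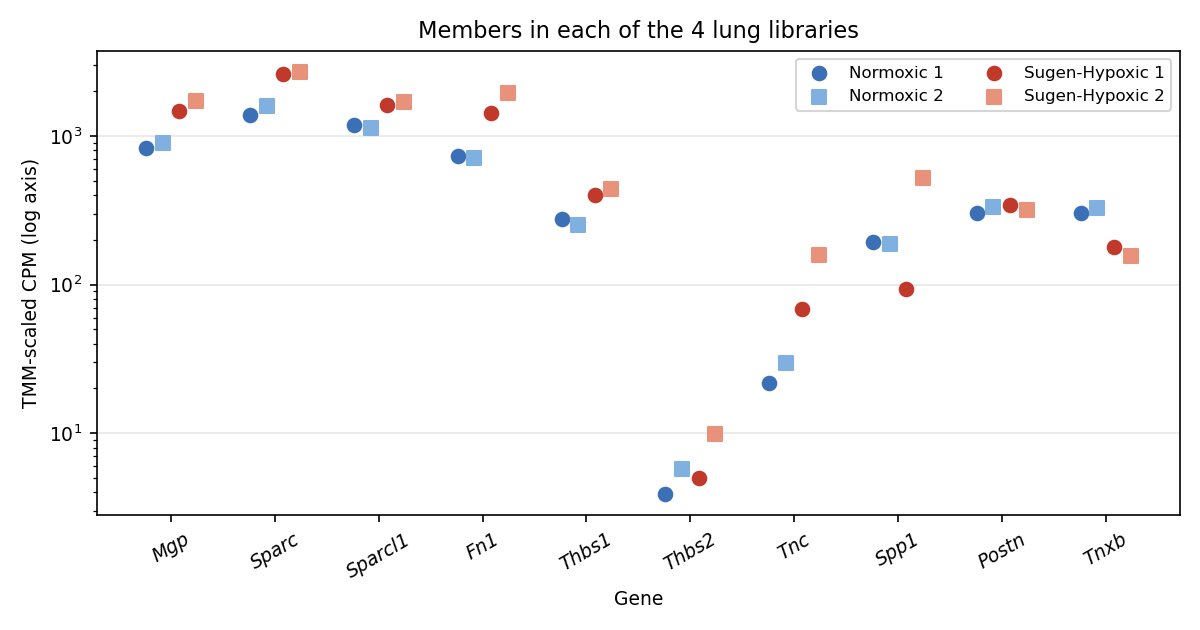
TMM-scaled CPM (log axis) of the 10 genes in each library, with normoxic libraries in blue and Sugen-Hypoxic libraries in red, circles for replicate 1 and squares for replicate 2. Both red points lie above both blue ones for Mgp, Sparc, Sparcl1, Fn1, Thbs1 and Tnc and below them for Tnxb, while for Spp1 the red points lie on either side of the blue ones at 93.5 and 517 CPM.

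The calls depended on which pools were in the fit. With 1 pool left in a group, the spread comes only from the pair in the other group. Fits without a treated pool went otherwise and are given in the closing section. With normoxic replicate 1 or replicate 2 left out, 0 of the 10 genes passed edgeR's test, although 7 had an unadjusted p under 0.05 in each case. In those fits 25 (0.128%) and 113 (0.577%) of all genes passed. The direction of the 7 called genes was the same in every fit with 1 library left out.

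Fn1 (ENSMUSG00000026193, GRCm38 chromosome 1, 71585520 to 71653200, minus strand) encodes fibronectin, the main adhesive glycoprotein of provisional matrix. It stood at 730 and 711 CPM in the normoxic libraries and 1423 and 1949 CPM in the treated ones. The normoxic pools were close together, and the lower treated pool was 1.95 times the higher normoxic one. The change was 1.23 ± 0.16 (SE; edgeR adjusted p = 0.0119), and it was 0.98 without treated replicate 2 and 1.44 without treated replicate 1. Fn1 took 14 and 13.1% of the counts of the 10 genes in normoxia and 17.3 and 20.2% after treatment.

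Tnc (ENSMUSG00000028364, chromosome 4, 63959785 to 64047015, minus strand) encodes tenascin C, a glycoprotein of developing and injured tissue that is sparse in healthy adult lung. It went from 21.9 and 29.9 CPM to 68.2 and 157 CPM. Treated replicate 2 was 2.3 times treated replicate 1, and even the lower treated pool was 2.28 times the higher normoxic one. Its change was the largest of the 10, 2.12 ± 0.40 with edgeR adjusted p = 0.03. It ranked as the 121st largest rise among all genes tested, and without treated replicate 2 it was 1.4.

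Tnxb (ENSMUSG00000033327, chromosome 17, 34670535 to 34719815, plus strand) encodes tenascin X, a large tenascin of loose connective tissue whose loss in people gives a form of Ehlers-Danlos syndrome. It was the one member that fell, from 302 and 329 CPM to 178 and 155 CPM. Its change was -0.92 ± 0.09 with edgeR adjusted p = 0.00705, the smallest adjusted p among the 10. The 2 tenascins thus changed in opposite directions. Per kilobase of exon, Tnxb stood at 8.77 and 7.01 times Tnc in the normoxic libraries and at 1.66 and 0.626 times in the treated ones, so that in treated replicate 2 Tnc was the higher.

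Postn (ENSMUSG00000027750, chromosome 3, 54361109 to 54391037, plus strand) encodes periostin, an integrin ligand that binds collagen and tenascin C and is known for its induction in fibrosis. It stood at 302 and 332 CPM in normoxia and 342 and 319 CPM after treatment, and the 4 libraries overlapped. The change was 0.06 ± 0.08 (edgeR adjusted p = 0.663), with a 95% interval of the difference from -0.14 to 0.25 on the log2 scale. With library size alone as the scaling it was -0.011. Per kilobase, Fn1 stood at 1.8 and 1.59 times Postn in normoxia and at 3.1 and 4.56 times after treatment. By the length of the longest coding transcript in place of merged exons, a choice made after seeing the data, the order in normoxia turned, at 0.931 and 0.825 times against 1.6 and 2.36 times after treatment.

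Among the thrombospondins, Thbs1 (ENSMUSG00000040152, chromosome 2, 118111876 to 118127133, plus strand) encodes a trimeric protein that activates latent TGF-beta and signals through CD36 and CD47. It went from 275 and 250 CPM to 403 and 442 CPM, with replicates close together in both groups. The change was 0.69 ± 0.08 with edgeR adjusted p = 0.0103.

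Thbs2 (ENSMUSG00000023885, chromosome 17, 14665500 to 14694235, minus strand) encodes a homologue that restrains vessel growth and collagen assembly. It was the least abundant member, at 3.89 and 5.71 CPM in normoxia and 5.02 and 9.89 CPM after treatment. The groups overlapped, since treated replicate 1 lay between the normoxic pools. The change of 0.64 ± 0.36 did not pass (edgeR adjusted p = 0.292; 95% interval -0.25 to 1.53). It passed only when treated replicate 1 was left out, at 1.05, and was 0.07 without treated replicate 2.

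Thrombospondin 1 is also stored in platelets, so platelet and megakaryocyte genes were read beside it. The 8 markers summed to 29.5 and 60 CPM in normoxia and 37.1 and 50.5 CPM after treatment, and the groups overlapped. None of the 8 passed edgeR's test, and 0 passed with DESeq2 and 0 with limma-voom. An unadjusted p under 0.05 was seen in 3, which differed in direction: Pf4 at 1.04, Clec1b at 0.66 and Treml1 at -1.18. The part of platelets in the Thbs1 result was not tested.

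Sparc (ENSMUSG00000018593, chromosome 11, 55394500 to 55423183, minus strand) encodes a calcium- and collagen-binding glycoprotein that assists collagen deposition. It went from 1382 and 1580 CPM to 2619 and 2695 CPM. The treated pools differed by a factor of only 1.03. The change was 0.84 ± 0.10 with edgeR adjusted p = 0.0103.

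Sparcl1 (ENSMUSG00000029309, chromosome 5, 104079111 to 104113733, minus strand), also called hevin, encodes a relative with a long acidic region that is prominent around vessels. It went from 1192 and 1133 CPM to 1606 and 1687 CPM, a change of 0.50 ± 0.08 with edgeR adjusted p = 0.0215. This was the smallest of the 6 rises. Per kilobase, Sparc stood at 0.899 and 1.08 times Sparcl1 in normoxia and at 1.26 and 1.24 times after treatment. By the longest coding transcript the ratio was 1.39 and 1.67 in normoxia and 1.96 and 1.92 after treatment, so the near-equality in normoxia depends on the length used.

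Mgp (ENSMUSG00000030218, chromosome 6, 136872435 to 136875823, minus strand) encodes a small vitamin K-dependent protein that inhibits calcification of vessels and cartilage and binds BMPs. It went from 824 and 892 CPM to 1468 and 1711 CPM. The change was 0.89 ± 0.11 with edgeR adjusted p = 0.0101. Cartilage genes were read beside it, because chondrocytes of the large airways are rich in Mgp. The 11 chondrocyte markers summed to 3.35 and 3.54 CPM in normoxia and 5.09 and 4.39 CPM after treatment. Of these, 4 (Acan, Col9a1, Matn1 and Snorc) were at 0 in all 4 libraries. Only 2 of the 11 had enough counts to be tested. Of these 2, Hapln1, a hyaluronan link protein, passed as higher, at 0.293 and 0.701 CPM before and 2.71 and 1.89 CPM after. Col11a2 did not pass and went the other way, from 2.74 and 2.67 CPM to 2.17 and 2.36 CPM. The rise in the sum was thus that of Hapln1. Of all genes tested, 5.51% passed as higher. The part of cartilage in the Mgp result was not tested.

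Spp1 (ENSMUSG00000029304, chromosome 5, 104435118 to 104441050, plus strand) encodes osteopontin, a phosphorylated ligand of integrins and CD44 that is made by macrophages, among other cells. It stood at 193 and 187 CPM in normoxia and at 93.5 and 517 CPM after treatment. One treated pool therefore lay below both normoxic pools and the other above both, and the treated pools were 5.53-fold apart. The change of 0.69 ± 0.70 did not pass (edgeR adjusted p = 0.559; 95% interval -1.06 to 2.43). Left with treated replicate 1 alone, Spp1 was called lower at -1.02 (edgeR adjusted p = 2.42e-09), and with treated replicate 2 alone it was called higher at 1.45 (edgeR adjusted p = 7.34e-11). In those fits the spread comes from the normoxic pair and the lone treated pool is assumed to vary as that pair does, so the 2 calls contradict each other and give no direction for Spp1.

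Treated replicate 2 was the higher of the treated pools for 8 of the 10 genes (all but Postn and Tnxb), against 49.5% of all genes tested. The gap was 5.53-fold for Spp1, 2.3-fold for Tnc, 1.97-fold for Thbs2 and 1.37-fold for Fn1, and under 1.2-fold for the other 4 of the 8. The macrophage markers were apart in the same pools: the 12 genes summed to 1446 and 1247 CPM in normoxia and to 2489 and 6234 CPM in treated replicates 1 and 2. Much of these sums was Chil3 alone, at 671 and 584 CPM in normoxia and 1598 and 4400 CPM in treated replicates 1 and 2. All 12 were higher in treated replicate 2 than in replicate 1. The defining genes Cd68 and Mrc1 stood at 63.5 and 111 CPM and at 139 and 229 CPM in the treated pools. Of the 12, 4 passed as higher (Mmp12, Ctsk, Chil3 and Gpnmb) and 0 as lower, beside 5.51% and 6.01% of all genes tested. The other 8 did not pass, among them Cd68 and Mrc1. Marco and Fabp5 had negative changes (-0.22 for each). The gap was not confined to macrophage genes. Col1a1 stood at 799 and 1243 CPM and Col3a1 at 1056 and 1672 CPM in treated replicates 1 and 2. Other fibroblast markers went the other way, such as Inmt at 1114 and 679 CPM, and the 13 together summed to 6344 and 6975 CPM. The part of macrophages or fibroblasts in the spread of Spp1, Tnc, Thbs2 and Fn1 was not tested.

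**Figure D2:**
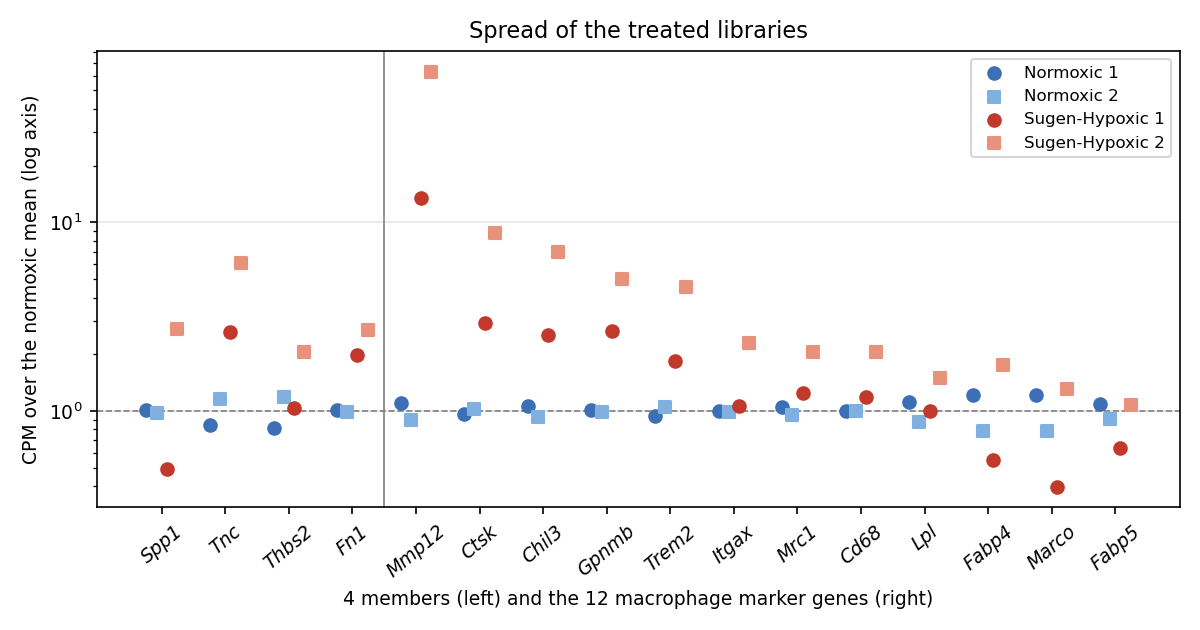
Level in each library divided by the normoxic mean of the gene (log axis), for Spp1, Tnc, Thbs2 and Fn1 on the left and the 12 macrophage markers on the right, ordered by fold change. Treated replicate 2 (light red squares) lies above treated replicate 1 (dark red circles) for each gene plotted, and Spp1, Fabp4, Marco and Fabp5 have treated replicate 1 below both normoxic points.

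For the marker counts below, the shares of all genes tested were 5.51% higher and 6.01% lower in edgeR's test. DESeq2 called 17.3% of them in either direction, and counts at an unadjusted p have no such share beside them. Smooth muscle markers passed as higher in 4 of 8 cases, and summed to 896 and 992 CPM in normoxia and 1248 and 1328 CPM after treatment. Pericyte markers also passed in 4 of 8 cases, with sums of 645 and 647 against 970 and 845 CPM. Of 13 fibroblast markers 1 rose (Col3a1) and 1 fell (Inmt), and 11 did not pass, with sums of 5509 and 5818 against 6344 and 6975 CPM. Among those 11, Col1a1 and Col1a2, the chains of type I collagen, had changes of 0.86 and 0.75 (edgeR adjusted p = 0.06 and 0.0584). Of the 13, 7 had an unadjusted p under 0.05 in edgeR's test, and DESeq2 called 4. All of those 7 but Inmt had a positive change. Endothelial markers rose in 3 of 10 cases and fell in 1 (DESeq2 called 7). Of 7 mesothelial markers 1 fell (Lrrn4) and 0 rose, with sums of 504 and 551 against 461 and 514 CPM. DESeq2 called 3, and 4 had an unadjusted p under 0.05 in edgeR's test. Of those 4, Upk3b and Lrrn4 had negative changes, and Upk1b and Slpi positive ones. Of 6 cardiac muscle markers 1 fell (Myl7), 4 had an unadjusted p under 0.05 and DESeq2 called 3. Their sums were 575 and 528 CPM in normoxia and 224 and 373 CPM after treatment, and their median change was -0.87. The part of these cells in the 6 rises was not tested.

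**Figure D3:**
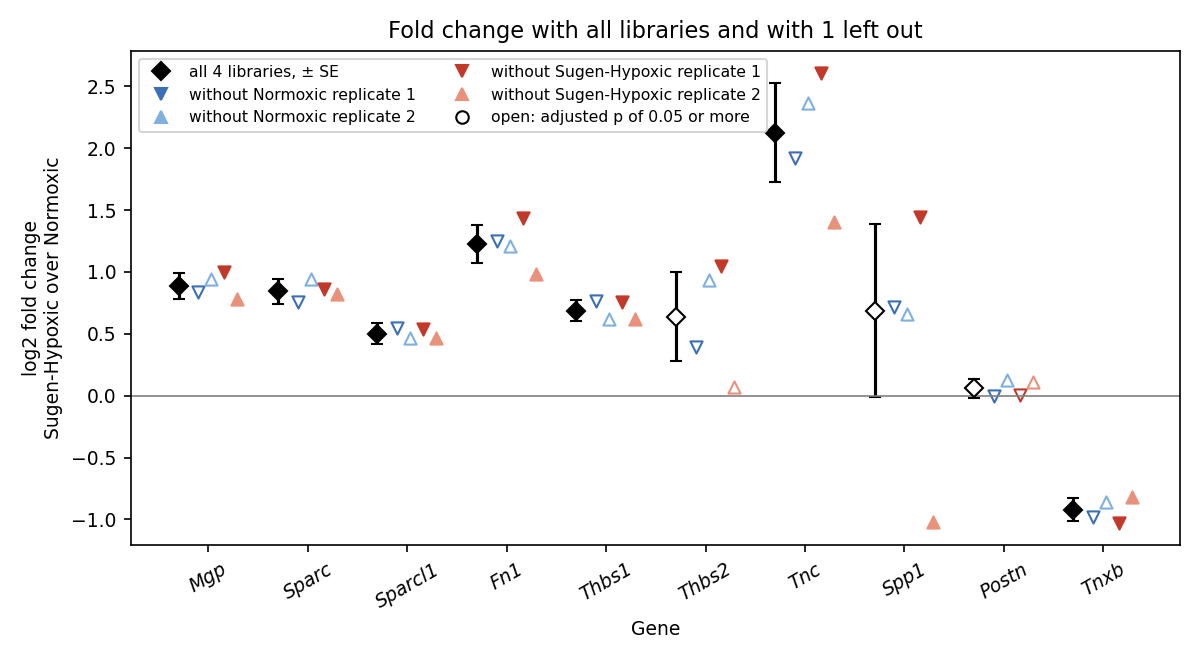
Log2 fold change of each gene with all 4 libraries (diamonds, bars are ± SE) and with 1 library left out (triangles), where open symbols have an adjusted p of 0.05 or more. Spp1 runs from -1.02 to 1.45 with the treated pool that is left, whereas Sparc stays between 0.76 and 0.94.

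Pool sex was read beside these values. In Tnc, Sparc and Mgp, 3 of the 7 called genes (42.9%), the mixed normoxic pool lay between the all-female normoxic pool and the all-male treated pools. The share was 55% among all 2163 called genes. In Fn1, Thbs1 and Sparcl1 the mixed pool lay below the all-female pool, away from the treated level, and in Tnxb it lay above it, again away from the treated level. With male fraction added to the model, at the cost of 1 of its 2 residual degrees of freedom, 0 of the 10 genes passed edgeR's test and 4 had an unadjusted p under 0.05. Of all genes tested, 11 (0.0586%) passed that fit. The 7 called genes kept their direction there.

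Levels were compared between genes only per length, first per kilobase of merged exons. In normoxia the order was Mgp (723 ± 40.4 CPM per kb, mean ± SD of 2 libraries), Sparcl1 (396 ± 14.3), Sparc (391 ± 36.8), Spp1 (115 ± 2.58), Fn1 (61.7 ± 1.11), Thbs1 (43.2 ± 2.8), Postn (36.5 ± 2.45), Tnxb (25.8 ± 1.59), Tnc (3.33 ± 0.726) and Thbs2 (0.685 ± 0.183). Only the neighbours Sparcl1 and Sparc overlapped between libraries. After treatment the order was Mgp (1339 ± 144 CPM per kb), Sparc (701 ± 14.3), Sparcl1 (561 ± 19.6), Spp1 (185 ± 182), Fn1 (144 ± 31.9), Thbs1 (69.6 ± 4.59), Postn (38 ± 1.92), Tnc (14.5 ± 8.09), Tnxb (13.6 ± 1.37) and Thbs2 (1.06 ± 0.492). There Spp1 overlapped Fn1, and Tnc overlapped Tnxb.

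Among 21697 protein-coding genes ranked by that level, Mgp went from 26th to 11th, Fn1 from 580th to 213th and Tnc from 9385th to 3533rd, whereas Tnxb went from 1722nd to 3747th and Postn from 1147th to 1178th. The order depends on the length used. With the longest coding transcript, Sparc came before Sparcl1 in normoxia as well and Postn moved from 7th to 5th, ahead of Fn1. After treatment Fn1 (202.8 CPM per kb) came just before Spp1 (202.6), and Postn (103) came before Thbs1 (72.3).

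Some of the 10 genes overlap other annotated genes. On the strand counted, Spp1 shares 309 exon bases with Gm42793, which had at most 10 reads in a library; how many Spp1 reads fell on those bases was not tested. The genes opposite Tnc (8030451A03Rik), Tnxb (Cyp21a2-ps), Thbs1 (Gm29233), Sparcl1 (Gm26703) and Fn1 (Apol7d) stayed under 1 CPM in each library. Reads on the other strand of the members were 0.313 to 2.46% of their total.

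Spp1 and Sparcl1 lie in the same 361.9 kb of chromosome 5, with 4 other genes for secreted glycoproteins of mineralised tissue between them. Dspp, Dmp1, Ibsp and Mepe had at most 25 reads in any library, Mepe had 0 in all 4, and none entered the test.

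Relatives of the 10 genes were read next: other tenascins, thrombospondins, SPARC-related and mineralised-tissue glycoproteins, the CCN family and related adhesion glycoproteins. Of 32 genes 26 were tested, 8 rose (30.8%), 1 fell (3.85%) and 17 did not pass. Among all genes tested the shares were 5.51% higher and 6.01% lower. The median log2 fold change of the 26 was 0.31, beside -0.0039 for all genes tested. This list too was chosen with earlier results of these data known.

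Thbs4, a thrombospondin of tendon and heart, rose from 0.556 and 0.317 CPM to 1.5 and 3.18 CPM, by 2.41 ± 0.49 (edgeR adjusted p = 0.0368), and did not pass with limma-voom (adjusted p = 0.0604). In the CCN family, Ccn4, a matricellular Wnt target, rose from 6.48 and 7.21 CPM to 21.7 and 21.8 CPM, by 1.67 ± 0.10 (edgeR adjusted p = 0.00357). Ccn2, connective tissue growth factor, rose by 1.21 ± 0.21 from 175 and 136 CPM to 431 and 289 CPM, and Ccn5 rose by 1.10. Ccn1, at 107 and 91.7 CPM before and 159 and 92.2 CPM after, did not pass and was named after its values were seen.

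Fbln2, fibulin 2, rose by 1.38 ± 0.10 from 26.2 and 24 CPM to 70.4 and 59.9 CPM. Fstl1, a secreted SPARC-family glycoprotein, rose by 0.73 and Ecm1 by 0.54. Emilin2, an elastin-associated glycoprotein, fell by 0.60, and Emilin1, named here after its values were seen, rose by 0.41. The other tenascins, also named after their values were seen, were low: Tnr stood at 2.5 and 2.49 CPM before and 1.26 and 0.668 CPM after, and Tnn at 6.45 and 6.11 CPM before and 5.9 and 3.74 CPM after. Neither passed.

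**Figure D4:**
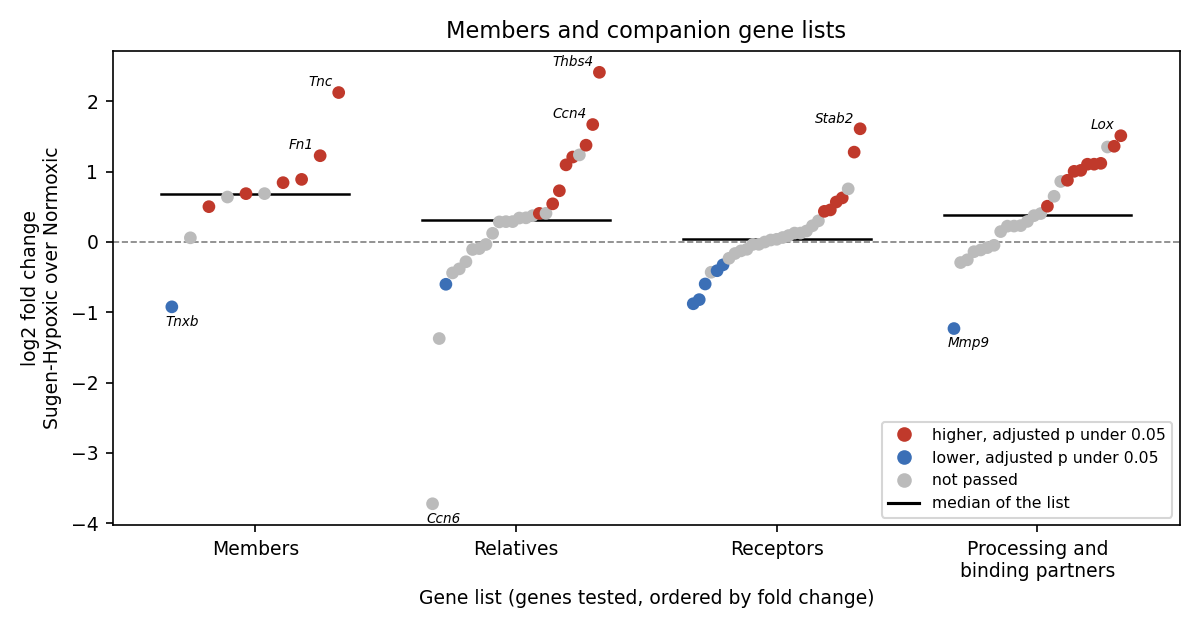
Log2 fold change of the 10 genes and of the genes tested in 3 companion lists, each ordered by fold change, in red where higher and blue where lower at an adjusted p under 0.05, with the list median as a bar. The medians are 0.69 for the 10 genes, 0.31 for relatives, 0.04 for receptors and 0.39 for processing and binding partners, and the grey point of Ccn6 at -3.72 belongs to a gene under 0.3 CPM in each library.

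Receptors and integrins were divided. Of 29 genes 6 rose (20.7%), 5 fell (17.2%) and 18 did not pass, with a median of 0.04. All genes tested gave 5.51% higher and 6.01% lower. Itga5 and Itgb1, which pair as the main fibronectin receptor, both rose. Itga5 went from 73.3 and 72.3 CPM to 109 and 115 CPM, by 0.63 ± 0.06 (edgeR adjusted p = 0.00595), and Itgb1 from 834 and 854 CPM to 1203 and 1112 CPM, by 0.46. Itgb6, an epithelial integrin chain that binds fibronectin and tenascin C, rose by 0.57, but missed the threshold with upper-quartile factors (adjusted p = 0.0554) and with library size alone (0.0637). Itga9, named after its values were seen, binds tenascin C and osteopontin and rose by 0.44.

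Itga7, a laminin-binding chain of muscle that also came second among the patterns nearest to Fn1, rose by 1.28 from 26.3 and 26.5 CPM to 50 and 78 CPM. Stab2, a scavenger receptor of sinusoidal endothelium, rose by 1.61 from 2.97 and 3.27 CPM to 10.7 and 8.37 CPM. Itgav, Itgb3 and Itgb5, which form receptors for several members, had changes of 0.13, 0.04 and 0.03, and none of the 3 passed. Cd44, a receptor of osteopontin and hyaluronan, stood at 230 and 231 CPM in normoxia and 220 and 283 CPM after treatment and did not pass. These 4 were named after their values were seen.

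Cd36, a scavenger receptor that binds thrombospondin, fell from 1352 and 1243 CPM to 833 and 882 CPM, by 0.60 on the log2 scale (edgeR adjusted p = 0.0156). Cd47, another receptor of thrombospondin, went from 422 and 421 CPM to 342 and 330 CPM, a fall of 0.33, and Lrp1, an endocytic receptor that clears thrombospondins, fell by 0.41. Cd47 and Lrp1 were named after their values were seen. Itga4 and Itgb7, which pair on lymphocytes as a fibronectin and MAdCAM receptor, fell by 0.88 and 0.82. The 11 lymphocyte markers, listed after the data were seen, summed to 255 and 232 CPM in normoxia and 99.6 and 119 CPM after treatment. In edgeR's test 10 of the 11 were lower, beside 6.01% of all genes tested. The part of lymphocytes in the falls of Itga4 and Itgb7 was not tested.

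Among 27 genes that process or bind the 10 proteins, 26 were tested, 9 rose (34.6%), 1 fell (3.85%) and 16 did not pass, with a median of 0.39. For all genes tested the shares were 5.51% higher and 6.01% lower, and this list was chosen with earlier results of these data known. Lox and Loxl2, which cross-link collagen and elastin, rose by 1.51 ± 0.09 and 1.36 ± 0.12. Lox went from 96.4 and 82.4 CPM to 245 and 265 CPM (edgeR adjusted p = 0.00363). Adamts1, a protease that cleaves matrix proteoglycans, rose by 1.12. Mmp2 and Mmp14, a gelatinase and its membrane-bound activator, rose by 1.004 and 1.02. Col3a1, whose fibrils hold several of the members, rose by 1.11 and Bmp2, a growth factor that Mgp binds, by 1.11.

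Mmp9, a gelatinase of neutrophils and macrophages, fell from 72.7 and 82.1 CPM to 35.5 and 30.4 CPM, by 1.23 on the log2 scale. The 8 neutrophil genes, listed after the data were seen, summed to 300.4 and 375 CPM before and 185 and 197 CPM after. Of the 7 tested, 4 were lower in edgeR's test, beside 6.01% of all genes tested. A further 2 had a positive change and did not pass. Mmp8 went from 15.5 and 18.4 CPM to 22.6 and 37.2 CPM, and Ltf from 11 and 9.58 CPM to 6.66 and 42.3 CPM. The part of neutrophils in the fall of Mmp9 was not tested. A further 3 enzymes of the list that did not pass were named after their values were seen. For Ggcx, the carboxylase that Mgp needs, levels were 65.6 and 70.9 CPM in normoxia and 65.2 and 63.9 CPM after treatment. For Fam20c, the kinase of osteopontin, they were 19.3 and 17.7 against 19.1 and 28.8 CPM. For Bmp1, a protease that processes several matrix proteins, they were 62.9 and 67.8 against 69.1 and 84.4 CPM.

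Genes whose pattern over the 4 libraries was most like each member were found among 10007 autosomal candidates that code for protein and average 10 CPM or more. Likeness is the root mean square difference of log2(CPM + 0.5), each gene centred on its own mean, and a smaller value is closer. Gpnmb (0.212) and Igf1 (0.24) were nearest to Tnc, and Gpnmb went from 33.3 and 32.4 CPM to 87.2 and 164 CPM. Ltf (0.254) and Tgtp2 (0.279) were nearest to Spp1. Ltf, one of the neutrophil genes listed above, stood at 11 and 9.58 CPM in normoxia and 6.66 and 42.3 CPM after treatment. These 2 members had no close neighbour on this scale.

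The other members had closer neighbours. Clmp (0.048) and Itga7 (0.067) were nearest to Fn1, Bst1 (0.0369) and Kdelr3 (0.0467) to Mgp, and Snai1 (0.0317) and Tagln (0.0329) to Sparc. Slc7a1 (0.0104) and Lgi2 (0.0194) were nearest to Sparcl1, and Me1 (0.0232) and Inka2 (0.0255) to Thbs1. Usp2 (0.0111) and Gnao1 (0.027) were nearest to Tnxb, Prr3 (0.00417) and Piezo2 (0.00418) to Postn, and Anln (0.0976) and Lgals3 (0.117) to Thbs2. Among the 10 themselves Sparc and Mgp were the closest pair (0.0718), followed by Thbs1 and Sparcl1 (0.0971).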

How the data were processed

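For each library the authors deposited whole-number read counts by gene, both unstranded and for each strand. STAR 2.5.1b, HTSeq and GRCm38.p4 are named in the submitters' processing notes. Strandedness of the kit and the gene annotation: not given in the sources used here. The column for the reverse strand, which held 20.9 to 24.9 times the counts of the other strand column, was used. Summary rows naming no gene were left out: unmapped reads were 6.45 to 7.55%, multimapping 4.5 to 4.54%, reads without a feature 7.73 to 9.98% and ambiguous 1.1 to 1.13% of reads. Of 47729 identifiers, 47310 matched GENCODE mouse release M 21 (GRCm38), the source of symbols, positions and merged exon lengths.

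Genes were filtered by filterByExpr and tested with edgeR 4.0.16 (R 4.3.3): quasi-likelihood, TMM factors, group as the only term, two-sided, Benjamini-Hochberg adjustment over all 18783 genes at 0.05. SEs derive from the F statistic. The fit was run on simulated counts with known changes, drawn independently with the spread estimated from these data. That run cannot speak to pooling, pool sex or unequal spread between the groups. Alternatives were DESeq2 1.42.0, limma-voom (limma 3.58.1), other scalings and filters, unstranded counts, a male-fraction covariate and leaving out each library. The members and lists were chosen with earlier results of these data known. Named genes are the 10 members, at most 8 called genes per companion list by fold change, the 2 nearest patterns per member, overlapping genes and the interval from Sparcl1 to Spp1. Every other gene named, including each companion or marker gene given as not passing, was chosen after its values were seen.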

Additional observations from a re-analysis of the deposited data

How the results depend on the processing

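No paired analysis was possible because the labels carry no replicate numbers; those used here follow record order and name a library only. The calls of all 10 genes were the same with RLE or upper-quartile factors, library size alone, no filter, a mean CPM filter, DESeq2, limma-voom and unstranded counts. Postn changed sign with library size alone (-0.011), with the male fraction as a covariate (-0.077) and without normoxic replicate 1 (-0.0012). With that covariate the 7 called genes did not pass: Tnc 1.69, Fn1 1.26, Thbs1 0.82, Mgp 0.78, Sparc 0.65, Sparcl1 0.58 and Tnxb -1.05. All 8 counts of calls (members, relatives, receptors and processing genes, higher and lower) were then 0, with 4 members, 8 relatives, 6 receptors and 8 processing genes at an unadjusted p under 0.05, and 11 of all 18783 genes (0.0586%) passed. The cause was not tested. The count of relatives called lower went from 1 to 2 with no expression filter, DESeq2, limma-voom or unstranded counts, and that of processing genes called higher from 9 to 15 with no filter.

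Leaving out 1 library gave 0 to 8 members higher and 0 to 2 lower, 0 to 14 relatives higher and 0 to 5 lower, 0 to 12 receptors higher and 0 to 7 lower, and 1 to 17 processing genes higher and 0 to 3 lower. The low ends came without normoxic replicate 1 or 2 and the high ends without a treated replicate, where 25.7 and 24.4% of all genes passed. Log2 fold changes then ran from 1.4 to 2.61 for Tnc, -1.03 to -0.82 for Tnxb, 0.62 to 0.76 for Thbs1, 0.76 to 0.94 for Sparc, 0.46 to 0.55 for Sparcl1, 0.98 to 1.44 for Fn1, 0.78 to 0.997 for Mgp, -0.0012 to 0.13 for Postn, -1.02 to 1.45 for Spp1 and 0.069 to 1.05 for Thbs2. Of 30 companion genes called, 1 and 5 kept the call without normoxic replicate 1 and 2, and 30 without either treated replicate. At these depths the member with the fewest reads, Thbs2, had 266 to 637 per library.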
